A study of Arabidopsis thaliana with 10 samples.

Results

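The response shared by homozygous mutants of a pair of Arabidopsis thaliana cellulose synthase lines was described by comparing all homozygous plants with all heterozygous plants, with the line as an additive term. The comparison used all 10 of the 10 arrays, 5 homozygous and 5 heterozygous. The 4 groups were homozygous irx5-2 plants of the AtCesA4 line (3 arrays), heterozygous irx5-2 plants of that line (3 arrays), homozygous irx6-1 plants of the AtCesA6 line (2 arrays) and heterozygous irx6-1 plants of that line (2 arrays), called CesA4 and CesA6 lines here. All plants were of the Col-0 ecotype, were kept without treatment at 22 °C and 50% humidity in a room chamber, and were sampled as rosettes at 4 weeks. Both sides of the comparison carried the mutant allele, and wild-type plants were not analysed here. The labels pair irx6-1 with AtCesA6, whereas the reference annotation lists IRX6 as a name of COBL4, so the second line is called by its label. Neither mutated gene had a named probe set, so genotype could not be checked in these data. Whether replicate arrays came from different plants, from pooled plants or from 1 RNA labelled again is not given in the labels, so n counts arrays, and p-values measure only the spread between these arrays, which may be technical.

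Cellulose is spun out at the plasma membrane by rosette-shaped complexes of cellulose synthase (CESA) proteins. CESA4 works in the complex that thickens secondary walls, for example in water-conducting xylem, while CESA6 works in the complex that builds the primary walls of growing cells. Plants with altered cellulose synthesis are known for changes in stress hormones, defence genes and growth, and receptor kinases such as THESEUS1 (THE1) monitor the wall. Since both mutants were profiled as whole rosettes, a change in a transcript cannot be told apart from a change in the share of cells that make it.

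Values are MAS5 signals, arbitrary units on a linear scale with every array brought by the authors to a trimmed mean of 100. Array medians lay between 32 and 37.68, and replicate arrays of 1 group correlated at 0.869 to 0.894 over all probe sets (Pearson's r on log2 signals). Signals of different probe sets are not comparable with each other, and only differences between arrays are used. Of 30 marker genes of rosette leaf, root, flower, seed, pollen, stem, epidermis and senescing leaf, 3 had a named probe set and the rest are not analysed here. RCA, the rubisco activase of leaves, averaged 10991 ± 744 over the 5 homozygous arrays and 10411 ± 417 over the 5 heterozygous arrays (SD). EXPA7, a root-hair expansin, was near the low end of the scale in every array (0.740 to 11.8). PYK10, a beta-glucosidase best known from roots, was higher in homozygous plants and is described with the lectins.

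Transcripts of 2470 of 22746 probe sets (10.9%) differed between homozygous and heterozygous plants at an adjusted p under 0.05 in limma. Of these, 1267 (5.57%) were higher and 1203 (5.29%) lower in homozygous plants, and 549 (2.41%) and 517 (2.27%) of them differed by at least 2-fold. The 5 homozygous arrays lay wholly above the 5 heterozygous arrays for 957 probe sets (4.21%) and wholly below them for 830 (3.65%), 1787 probe sets in all (7.86%). Both criteria were met by 1507 probe sets (6.63%), of which 807 (3.55%) were higher and 700 (3.08%) lower. At an unadjusted p under 0.05 the pooled count was 4721 (20.8%). The estimated change had the same sign in both lines for 2460 of the 2470, a share that the pooled test itself favours. Counted over genes, with the brightest probe set standing for a gene, 1195 of 13355 genes (8.95%) were called, 616 higher (4.61%) and 579 lower (4.34%). A single gene was named for 1197 of the 2470 called probe sets, and only those are described by name. These shares over all genes stand beside the counts over gene lists, without matching for signal. Among the 13355 genes, 4948 had a mean signal of at least 50. With the dimmer 50% of probe sets left out, 2633 of 11373 were called. For a list of mostly bright genes, the share over all genes is thus a low comparison. The lists were also chosen with earlier results of these data known, so their shares are descriptive only. The median change over all genes was 0.0058 on the log2 scale, a value that the scaling of every array to 1 trimmed mean holds near 0.

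The pooled comparison drew on lines of unequal size, and the separate changes show how each entered. Each line was also fitted alone on its own arrays, 6 for the CesA4 line and 4 for the CesA6 line. These fits had fewer arrays than the pooled fit, so the counts also depend on their lower precision. Of the 2470 calls, 844 also passed in both single-line fits, 865 passed in the CesA4 fit only and 277 in the CesA6 fit only. The remaining 484 passed only when both lines were pooled. Whether the change itself differs between lines is a separate test, which called 82 probe sets (0.361%), 48 with the higher change in the CesA4 line (0.211%) and 34 with the lower (0.149%), and 37 of the 82 (0.163%) were among the pooled calls. At an unadjusted p under 0.05 the count was 2213 (9.73%). The fit lets the assumed spread follow the signal (trend) and plays down outlying probe sets (robust) in limma's eBayes. Without both options, no difference between lines was called, while 1731 probe sets had an unadjusted p under 0.05.

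**Figure D1:**
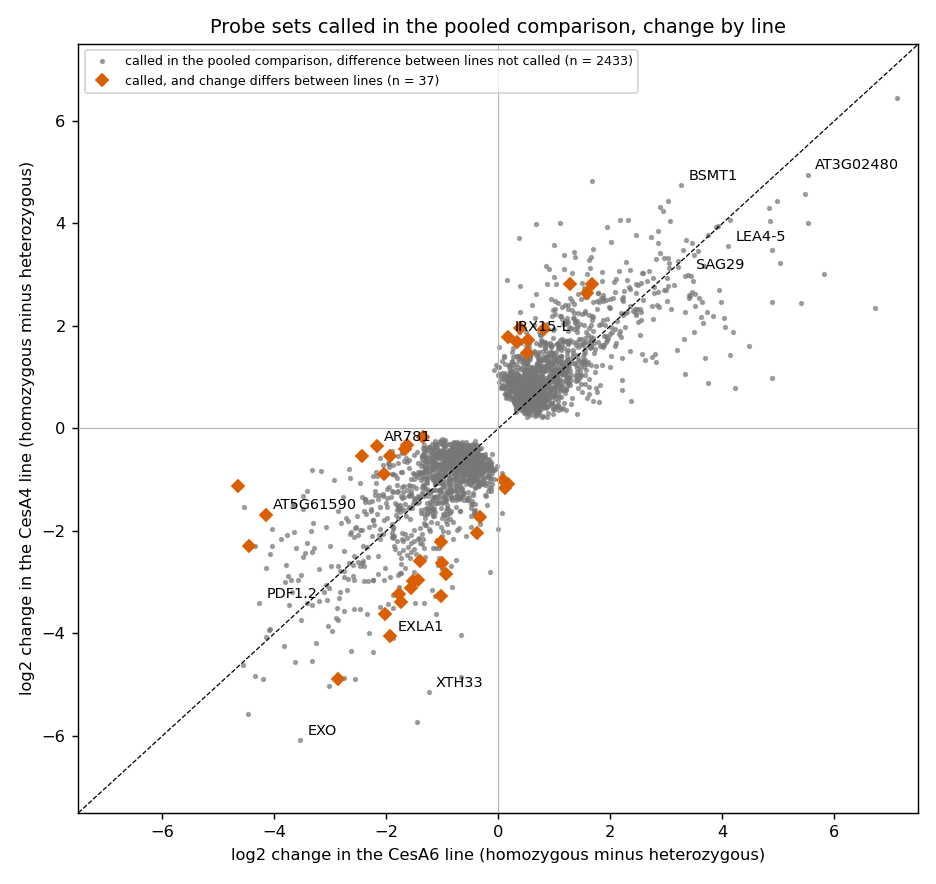
Change in each line for the 2470 probe sets called in the pooled comparison. Both axes give the log2 change, homozygous minus heterozygous, of the CesA6 line (horizontal) and the CesA4 line (vertical), the dashed line marks equal change, grey dots are probe sets whose change was not called different between lines, and the 37 orange diamonds are those called different. Points gather in the quadrants where both lines change in the same direction, since 2460 of the 2470 do so.

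The strongest rise belonged to AT3G02480. Its signals were 921, 888 and 1103 in homozygous CesA4 plants and 1169 and 1115 in homozygous CesA6 plants, against 34.1, 29.0 and 30.6 in heterozygous CesA4 plants and 22.4 and 27.2 in heterozygous CesA6 plants. Every homozygous array was at least an order of magnitude above every heterozygous one, and the pooled log2 change was 5.18 ± 0.15 (SE), with an adjusted p of 1.13e-19. AT3G17520 had signals of 107, 156 and 216 in homozygous CesA4 plants and 128 and 122 in homozygous CesA6 plants, against 9.81, 18.5 and 4.79 in heterozygous CesA4 plants and 2.41 and 3.06 in heterozygous CesA6 plants. Its heterozygous signals were close to the low end of the scale, the groups did not overlap, and the log2 change was 4.61 ± 0.37 (adjusted p = 3.45e-10). AT3G28270 was already bright in heterozygous plants, with 2348, 2237 and 3043 in homozygous CesA4 plants and 4563 and 3565 in homozygous CesA6 plants, against 198, 129.7 and 166 in heterozygous CesA4 plants and 273 and 258 in heterozygous CesA6 plants. This gene rose by 3.94 ± 0.13 on the log2 scale, a 15.4-fold difference, with nearly equal changes in both lines (3.96 ± 0.16 in the CesA4 line and 3.93 ± 0.20 in the CesA6 line). The other genes known here by locus alone among the 12 largest rises were AT3G57010 (3.77), AT3G53980 (3.75), AT1G62510 (3.37), AT2G37870 (3.24), AT1G54020 (3.21) and AT1G49450 (3.18, all log2 changes). For each of them the 5 homozygous arrays lay above the 5 heterozygous arrays, as the rule for naming them required.

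Among the 12 largest falls, those known by locus alone were AT3G04210 (-4.20), AT4G37240 (-4.10), AT4G27280 (-3.30), AT3G19680 (-3.23), AT1G10020 (-3.07), AT2G27080 (-2.94), AT3G16670 (-2.81) and AT5G44020 (-2.73). AT4G27280 had signals of 96.8, 87.9 and 113 in homozygous CesA4 plants and 168 and 95.5 in homozygous CesA6 plants, against 1054, 1052 and 952 in heterozygous CesA4 plants and 1176 and 1148 in heterozygous CesA6 plants. The heterozygous signals of both lines sat in a narrow band that no homozygous array approached, and the adjusted p was 1.45e-15. AT3G04210 had signals of 19.5, 18.1 and 3.94 in homozygous CesA4 plants and 40.4 and 38.3 in homozygous CesA6 plants, against 243, 305 and 251 in heterozygous CesA4 plants and 523 and 458 in heterozygous CesA6 plants. All homozygous arrays were far below, and both lines fell (-4.57 ± 0.56 in the CesA4 line and -3.64 ± 0.68 in the CesA6 line). AT4G37240 moved most with single arrays, with a log2 change of -4.72 without homozygous CesA6 array 1 and -3.48 without homozygous CesA6 array 2.

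**Figure D2:**
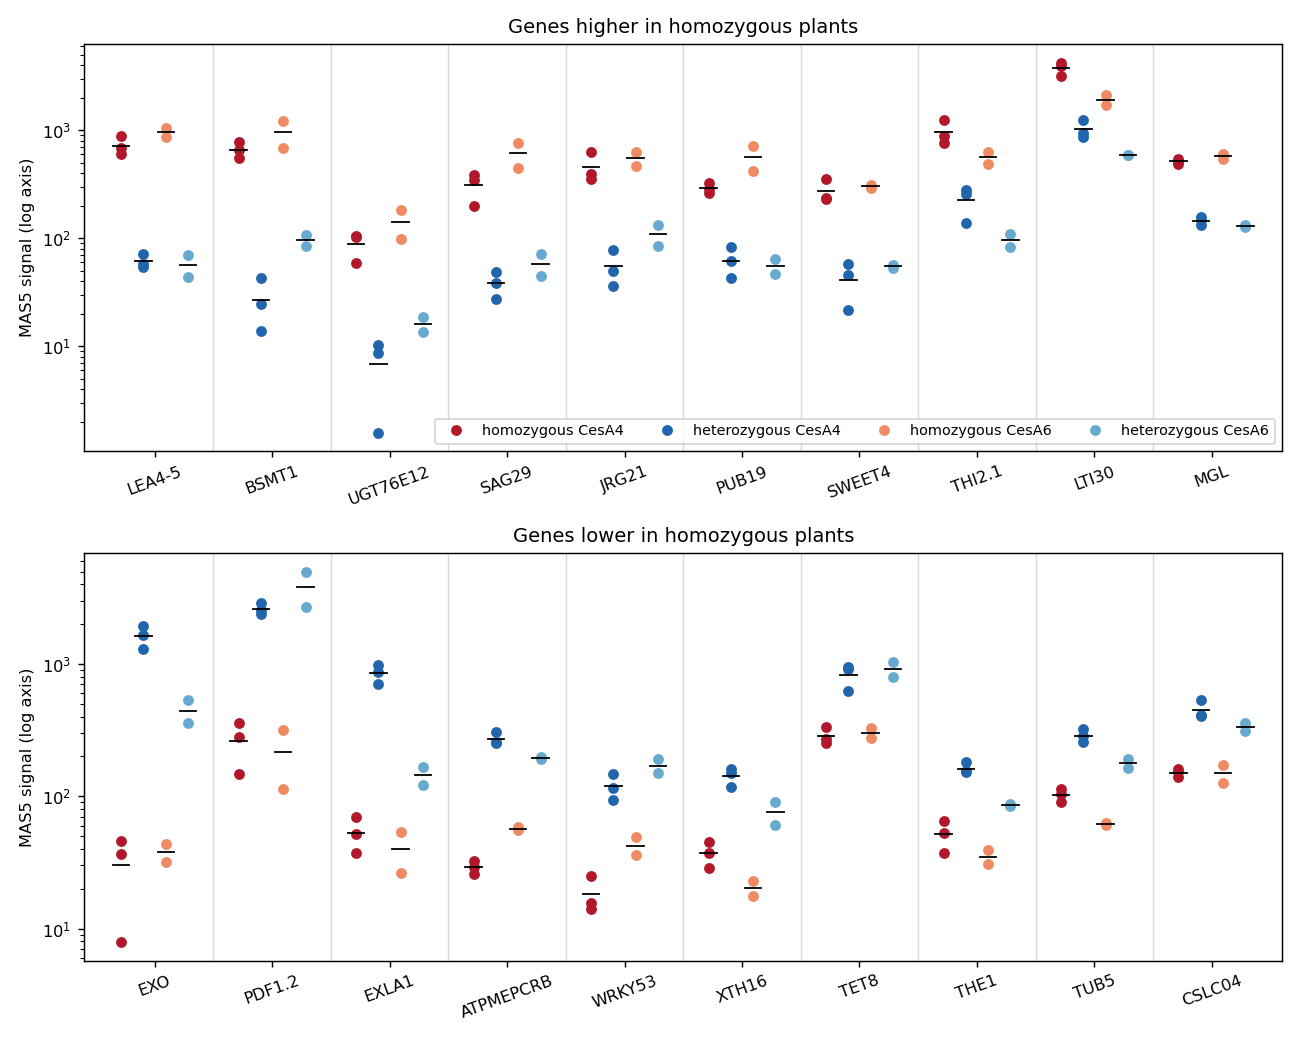
MAS5 signals of 20 genes on every array, on a log axis. Each point is 1 array, the short line is the group mean, and within each gene the groups run homozygous CesA4 (3 arrays), heterozygous CesA4 (3), homozygous CesA6 (2) and heterozygous CesA6 (2). In the upper panel every homozygous array lies above every heterozygous array of its gene, and in the lower panel every one lies below.

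Of 6 genes listed as cold and drought regulated, 5 were higher in homozygous plants, and so were 2 of 7 listed late embryogenesis abundant and dehydrin genes. The lists were built from gene symbols and synonyms, so family members known by locus alone can be missing from them. AT3G02480 and AT3G17520, described above, were in no list, and these counts do not cover them. LEA4-5 (AT5G06760), a late embryogenesis abundant protein that protects cells during water loss, had signals of 601, 684 and 877 in homozygous CesA4 plants and 873 and 1048 in homozygous CesA6 plants, against 54.2, 71.4 and 57.9 in heterozygous CesA4 plants and 69.9 and 44.0 in heterozygous CesA6 plants. The homozygous arrays of both lines formed 1 high group and the heterozygous arrays 1 low group, a 13.7-fold difference (log2 change 3.77 ± 0.16, SE, adjusted p = 1.07e-15). LTI30 (AT3G50970), a dehydrin induced by low temperature, had signals of 3915, 3215 and 4241 in homozygous CesA4 plants and 1720.1 and 2108 in homozygous CesA6 plants, against 874, 1242 and 937 in heterozygous CesA4 plants and 584 and 596 in heterozygous CesA6 plants. Levels were lower in the CesA6 line in both genotypes, and the change was similar in each line (1.90 ± 0.15 in the CesA4 line and 1.69 ± 0.18 in the CesA6 line). COR15A (AT2G42540), which stabilises chloroplast membranes during freezing, had 9105, 6959 and 8335 in homozygous CesA4 plants and 6513 and 8973 in homozygous CesA6 plants, against 4569, 3868 and 4873 in heterozygous CesA4 plants and 2286 and 3009 in heterozygous CesA6 plants. The groups did not overlap, and the log2 change was 1.14 ± 0.14 (adjusted p = 1.62e-06).

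Of the 6 cold and drought regulated genes, 5 rose (83.3%, against 4.61% of all genes) and none fell, with a median log2 change of 1.09. Besides LTI30 and COR15A these were COR15B (1.05 ± 0.13), the dehydrin COR47 (0.55 ± 0.12) and RD2 (0.48 ± 0.13, log2 changes with SE). COR15A and COR15B are close copies, so their probe sets may share signal. COR15B, COR47 and RD2 overlapped between genotypes when lines were ignored. The sixth, COR27, had an estimate of 1.24 and was not called (adjusted p = 0.508). Of the 7 listed late embryogenesis abundant and dehydrin genes, 2 rose (28.6%), LEA4-5 and AtLEA4-1. AtLEA4-1 rose by 2.92 ± 0.89, with dim signals of 14.9 ± 5.31 in homozygous and 2.94 ± 3.59 in heterozygous plants. The median change of the 7 listed genes was 0.28. COR47 and RD2 lost their calls when eBayes was run without trend and robust (adjusted p 0.0954 to 0.119). COR47 lost its call without the line term (adjusted p = 0.103). The call of AtLEA4-1 also depended on homozygous CesA4 arrays 2 and 3, heterozygous CesA4 arrays 1 and 3, homozygous CesA6 arrays 1 and 2 and heterozygous CesA6 array 1, each left out alone (adjusted p 0.0511 to 0.0807). The change of AtLEA4-1 was 3.57 without heterozygous CesA4 array 2.

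The next 5 genes belong to no common list. They were picked from the largest rises of genes with a name of their own, but not by size alone. Each of the 5 is described here by a link to abscisic acid, drought or turgor. The choice therefore does not show how common such genes are among the rises. ZW9 (2.26 ± 0.14), SIS (1.93 ± 0.26) and SGP2 (1.705 ± 0.23), from the same set, had larger log2 changes than some of the 5. XERICO (AT2G04240), a RING-finger protein that raises abscisic acid levels, had signals of 423, 491 and 588 in homozygous CesA4 plants and 486 and 608 in homozygous CesA6 plants, against 120.4, 119 and 147 in heterozygous CesA4 plants and 239 and 203 in heterozygous CesA6 plants. All homozygous arrays exceeded all heterozygous ones, at a log2 change of 1.69 ± 0.15 (adjusted p = 1.64e-09). HIS1-3 (AT2G18050), a linker histone induced by drought, averaged 258 ± 61.8 in homozygous plants and 63.6 ± 26.7 in heterozygous ones (SD, n = 5 each) and rose by 2.11 ± 0.20. ALDH7B4 (AT1G54100), a turgor-responsive aldehyde dehydrogenase that clears reactive aldehydes, averaged 1947 ± 310.2 in homozygous plants and 613 ± 167 in heterozygous ones and rose by 1.70 ± 0.14. DI21 (AT4G15910), a drought-induced gene, averaged 345 ± 27.8 in homozygous plants and 139 ± 44.2 in heterozygous ones and rose by 1.37 ± 0.17. PUB19 (AT1G60190), a U-box ubiquitin ligase that damps abscisic acid responses, averaged 400.3 ± 184 in homozygous plants and 59.3 ± 15.7 in heterozygous ones and rose by 2.69 ± 0.22, with 2.27 ± 0.23 in the CesA4 line and 3.32 ± 0.28 in the CesA6 line. The largest adjusted p among these 5 genes was 5.3e-07, and none of them overlapped between genotypes. Of 8 aldehyde dehydrogenases, 3 were called (37.5%, against 8.95% of all genes). ALDH7B4 rose and 2 fell, ALDH2C4 (-0.60 ± 0.13), which makes ferulic and sinapic acids, and ALDH3F1 (-0.48 ± 0.14). ALDH3F1 lost its call when eBayes was run without trend and robust (adjusted p = 0.135). The call of ALDH3F1 also depended on homozygous CesA4 arrays 1 and 2 and heterozygous CesA4 arrays 1 and 3, each left out alone (adjusted p 0.0535 to 0.072).

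All 3 genes listed as jasmonate-related rose (100%, against 4.61% of all genes), and 4 of 15 defensins and thionins fell (26.7%, against 4.34%). The jasmonate list was chosen with earlier results of these data known and is not complete. It leaves out ORA47, a factor of jasmonate synthesis that was not called. Also outside it are the jasmonate-responsive THI2.1, which rose, and PDF1.2, which fell. BSMT1 (AT3G11480) methylates salicylic and benzoic acid and is induced by jasmonate. Its signals were 782, 550.1 and 658 in homozygous CesA4 plants and 1219 and 691 in homozygous CesA6 plants, against 42.7, 13.9 and 24.6 in heterozygous CesA4 plants and 84.7 and 108 in heterozygous CesA6 plants. Homozygous arrays lay 17.8-fold higher on average on the log scale (log2 change 4.16 ± 0.40, SE, adjusted p = 0.00017), with 4.75 ± 0.38 in the CesA4 line and 3.26 ± 0.47 in the CesA6 line. JRG21 (AT3G55970), a jasmonate-regulated oxygenase, had 627, 357 and 395 in homozygous CesA4 plants and 629 and 469 in homozygous CesA6 plants, against 78.3, 36.2 and 50.0 in heterozygous CesA4 plants and 132 and 85.2 in heterozygous CesA6 plants. The groups were fully apart (log2 change 2.80 ± 0.24). JMT (AT1G19640), which methylates jasmonic acid, rose by 0.67 ± 0.15 with overlapping groups. JMT lost its call when eBayes was run without trend and robust (adjusted p = 0.0569).

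Of 15 defensin and thionin genes, 2 rose (13.3%, against 4.61% of all genes) and 4 fell (26.7%, against 4.34%). The list had no stable median, with 0.0085 for both lines, -0.65 for the CesA4 arrays alone, 0.84 for the CesA6 arrays alone and -0.32 to 0.51 on leaving out single arrays. The CesA6 arrays alone called 1 member higher and 0 lower. THI2.1 (AT1G72260), a thionin induced by jasmonate, had signals of 1233, 758 and 878 in homozygous CesA4 plants and 630.0 and 491 in homozygous CesA6 plants, against 281, 259 and 139 in heterozygous CesA4 plants and 83.1 and 110.2 in heterozygous CesA6 plants. It rose in both lines by 2.12 ± 0.24 in the CesA4 line and 2.54 ± 0.30 in the CesA6 line on the log2 scale. PDF1.2 (AT5G44420), a defensin that responds to jasmonate together with ethylene, had 359.7, 147 and 279.8 in homozygous CesA4 plants and 319 and 114 in homozygous CesA6 plants, against 2897, 2569 and 2407 in heterozygous CesA4 plants and 4986 and 2699.5 in heterozygous CesA6 plants. Every homozygous array was below every heterozygous one, at a log2 change of -3.75 ± 0.39 (adjusted p = 0.000415). PDF1.2b (AT2G26020) fell by 3.23 ± 0.47, but the copies are nearly identical and their probe sets may read the same transcripts. LCR68 fell by 0.62 ± 0.13 without overlap. LCR69 was called lower over both lines (-0.58 ± 0.17), yet its change was -1.02 ± 0.15 in the CesA4 line and 0.08 ± 0.18 in the CesA6 line. PDF1.4 rose by 0.82 ± 0.20. LCR69 and PDF1.4 lost their calls when eBayes was run without trend and robust (adjusted p 0.0752 to 0.232). LCR69 lost its call without the line term (adjusted p = 0.594). The call of LCR69 also depended on homozygous CesA4 arrays 1, 2 and 3 and heterozygous CesA4 arrays 1, 2 and 3, each left out alone (adjusted p 0.075 to 0.102).

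All 4 jacalin-related lectins with a named probe set rose (100%, against 4.61% of all genes), with a median log2 change of 1.26. JAL33 (AT3G16450) averaged 175 ± 29.1 in homozygous plants and 56.4 ± 13.9 in heterozygous ones (SD, n = 5 each) and rose by 1.65 ± 0.18 (adjusted p = 1.1e-07). JAL34 rose by 1.19 ± 0.19 and JAL22 by 1.04 ± 0.19, both without overlap between genotypes. JAL23 rose by 1.33 ± 0.34, with 1.97 ± 0.21 in the CesA4 line and 0.38 ± 0.26 in the CesA6 line, and this difference between lines was called (adjusted p = 0.045). Several lectins of this family are known to bind PYK10, the main beta-glucosidase of endoplasmic reticulum bodies in roots. PYK10 had 378, 441 and 285 in homozygous CesA4 plants and 360.2 and 278 in homozygous CesA6 plants, against 309, 178 and 101 in heterozygous CesA4 plants and 121 and 97.3 in heterozygous CesA6 plants. It rose by 1.24 ± 0.26 (adjusted p = 0.00588), with 1 heterozygous CesA4 array at the level of the homozygous ones. Of 21 beta-glucosidases, 2 were called (9.52%, near the 8.95% of all genes), PYK10 and BGLU40 (0.51 ± 0.13), both higher. JAL23, PYK10 and BGLU40 lost their calls when eBayes was run without trend and robust (adjusted p 0.0521 to 0.0603). JAL23 lost its call with quantile normalization (adjusted p = 0.0555). The call of JAL23 also depended on homozygous CesA4 arrays 1, 2 and 3, heterozygous CesA4 arrays 1 and 2, homozygous CesA6 array 1 and heterozygous CesA6 array 2, each left out alone (adjusted p 0.059 to 0.107).

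Sugar transporters and carbon metabolism changed in both directions. SAG29 (AT5G13170), also known as SWEET15, a sugar exporter induced during senescence, had signals of 199, 388 and 345 in homozygous CesA4 plants and 768 and 452 in homozygous CesA6 plants, against 27.7, 49.0 and 38.2 in heterozygous CesA4 plants and 44.3 and 71.1 in heterozygous CesA6 plants. SWEET4 (AT3G28007), another member of the family, had 230.0, 238 and 358 in homozygous CesA4 plants and 314 and 292 in homozygous CesA6 plants, against 45.6, 21.5 and 57.2 in heterozygous CesA4 plants and 53.2 and 57.1 in heterozygous CesA6 plants. For both genes the homozygous arrays were several-fold above the heterozygous ones in each line, with log2 changes of 3.16 ± 0.22 and 2.67 ± 0.21. TMT1 (AT1G20840), which loads sugars into the vacuole, moved the other way, with 73.9, 83.8 and 73.9 in homozygous CesA4 plants and 72.7 and 57.3 in homozygous CesA6 plants, against 183, 222 and 148 in heterozygous CesA4 plants and 194 and 123 in heterozygous CesA6 plants. It fell by 1.24 ± 0.17 (adjusted p = 2.92e-06), with -1.24 ± 0.21 in the CesA4 line and -1.25 ± 0.26 in the CesA6 line. Its relative TMT2 rose by 0.55 ± 0.15, SFP1 rose by 0.65 ± 0.15 and the phloem-loading exporter SWEET11 fell by 0.52 ± 0.15. TMT2, SFP1 and SWEET11 lost their calls when eBayes was run without trend and robust (adjusted p 0.0634 to 0.183). The call of SWEET11 also depended on homozygous CesA4 array 2, heterozygous CesA4 array 3, homozygous CesA6 array 1 and heterozygous CesA6 array 2, each left out alone (adjusted p 0.054 to 0.0861). Of 21 sugar transporters, 4 rose (19.0%) and 2 fell (9.52%), against 4.61% and 4.34% of all genes. Their median change of -0.13 had no stable sign, with 0.23 for the CesA4 arrays alone, -0.34 for the CesA6 arrays alone, -0.39 with lines weighted equally and -0.33 to 0.01 on leaving out single arrays. APL4 (AT2G21590), a large subunit of the enzyme that commits glucose to starch, averaged 147 ± 16.4 in homozygous plants and 35.9 ± 16.5 in heterozygous ones (SD, n = 5 each) and rose by 2.17 ± 0.26. MGL (AT1G64660), methionine gamma-lyase, averaged 539.9 ± 43.7 in homozygous plants and 139 ± 12.4 in heterozygous ones and rose by 1.96 ± 0.13, with tight groups in both lines.

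EXO was the called member of 3 brassinosteroid and EXORDIUM-family genes and had the largest pooled fall among the wall and growth genes named here. EXO (AT4G08950), EXORDIUM, promotes leaf cell expansion downstream of brassinosteroids. Its signals were 46.1, 7.90 and 36.7 in homozygous CesA4 plants and 43.9 and 31.9 in homozygous CesA6 plants, against 1309.8, 1653 and 1943 in heterozygous CesA4 plants and 356 and 532 in heterozygous CesA6 plants. Heterozygous CesA4 arrays were above heterozygous CesA6 arrays, and all homozygous arrays were below both. The log2 change was -5.07 ± 0.67 (SE, adjusted p = 0.00202), with -6.09 ± 0.67 in the CesA4 line and -3.54 ± 0.82 in the CesA6 line, and the difference between the lines was not called (adjusted p = 0.514).

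Of 29 xyloglucan-modifying and expansin genes, which loosen and remodel growing walls, 7 fell (24.1%, against 4.34% of all genes) and none rose. Estimates were above 0 for 12 of the 29, and the median of -0.31 was 0.03 for the CesA6 arrays alone, where 3 were called lower, and -0.16 without heterozygous CesA4 array 1. The expansin-like gene EXLA1 (AT3G45970) had signals of 51.5, 37.3 and 69.4 in homozygous CesA4 plants and 53.4 and 26.1 in homozygous CesA6 plants, against 712, 866 and 991 in heterozygous CesA4 plants and 122 and 167 in heterozygous CesA6 plants. Homozygous arrays of both lines were at a similar low level while the heterozygous arrays differed between lines, and the change was -4.05 ± 0.25 in the CesA4 line and -1.93 ± 0.31 in the CesA6 line, a difference that was called (adjusted p = 0.0196). EXLA2 fell by 1.50 ± 0.25, with -2.11 ± 0.26 in the CesA4 line and -0.58 ± 0.31 in the CesA6 line, and the dim EXLA3 fell by 3.26 ± 0.78. XTH16 (AT3G23730), a xyloglucan endotransglucosylase, had 28.5, 37.2 and 45.4 in homozygous CesA4 plants and 17.6 and 22.9 in homozygous CesA6 plants, against 149, 161 and 118 in heterozygous CesA4 plants and 60.7 and 91.0 in heterozygous CesA6 plants. It fell by 1.93 ± 0.21 (adjusted p = 6.82e-08), with -1.96 ± 0.27 in the CesA4 line and -1.89 ± 0.33 in the CesA6 line. XTH33 fell by 3.59 ± 0.84, with -5.15 ± 0.99 in the CesA4 line and -1.25 ± 1.21 in the CesA6 line. Its homozygous signals were near the bottom of the scale (0.818 to 4.78), so the size is uncertain. XTH19 and EXGT-A3 were called lower as well (-0.96 ± 0.27 and -0.58 ± 0.16). XTH19 and EXGT-A3 lost their calls when eBayes was run without trend and robust (adjusted p 0.121 to 0.186). EXGT-A3 lost its call without the line term (adjusted p = 0.0585). The call of XTH19 also depended on homozygous CesA4 arrays 2 and 3, heterozygous CesA4 arrays 1 and 3 and heterozygous CesA6 array 2, each left out alone (adjusted p 0.051 to 0.108). The call of EXGT-A3 also depended on homozygous CesA4 array 1 and heterozygous CesA4 arrays 2 and 3, each left out alone (adjusted p 0.0567 to 0.0637). The change of EXGT-A3 was -0.99 ± 0.15 in the CesA4 line and 0.04 ± 0.19 in the CesA6 line.

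In 2 further lists of wall polysaccharide genes, 1 of 7 pectin genes fell, and 3 of 9 cellulose and cellulose-synthase-like genes fell while 1 rose. ATPMEPCRB (AT4G02330), pectin methylesterase 41, had signals of 29.0, 26.0 and 32.4 in homozygous CesA4 plants and 55.4 and 58.6 in homozygous CesA6 plants, against 251, 259 and 308 in heterozygous CesA4 plants and 197 and 190.4 in heterozygous CesA6 plants. It fell by 2.64 ± 0.21, with -3.22 ± 0.20 in the CesA4 line and -1.77 ± 0.24 in the CesA6 line, a difference that was called (adjusted p = 0.0333). ATPMEPCRB was the only pectin gene called (14.3%, against 8.95% of all genes), while the estimates of all 7 were below 0 (median -0.46). CSLC04 (AT3G28180), which makes the glucan backbone of xyloglucan, had 151, 141 and 160.3 in homozygous CesA4 plants and 173 and 127 in homozygous CesA6 plants, against 407, 411 and 539 in heterozygous CesA4 plants and 313 and 359.6 in heterozygous CesA6 plants. The groups did not overlap (log2 change -1.42 ± 0.14, adjusted p = 2.09e-08). COB (AT5G60920), COBRA, an anchored protein that orients cellulose microfibrils, had 801, 725 and 754 in homozygous CesA4 plants and 709.8 and 687 in homozygous CesA6 plants, against 1064, 1151 and 1266 in heterozygous CesA4 plants and 944 and 912 in heterozygous CesA6 plants. Its fall was small but separated every array, at -0.53 ± 0.11 (adjusted p = 0.00164). The third to fall was the dim CSLA03 (-3.66 ± 0.75), and the 4 calls were 44.4% of the list, against 8.95% of all genes. The 1 that rose was CSLA01 (AT4G16590), of a family that makes glucomannan, with 249, 193 and 292 in homozygous CesA4 plants and 471 and 319.6 in homozygous CesA6 plants, against 75.3, 60.8 and 92.8 in heterozygous CesA4 plants and 94.3 and 112 in heterozygous CesA6 plants. CSLA01 rose by 1.77 ± 0.16 (adjusted p = 3.25e-09).

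**Figure D3:**
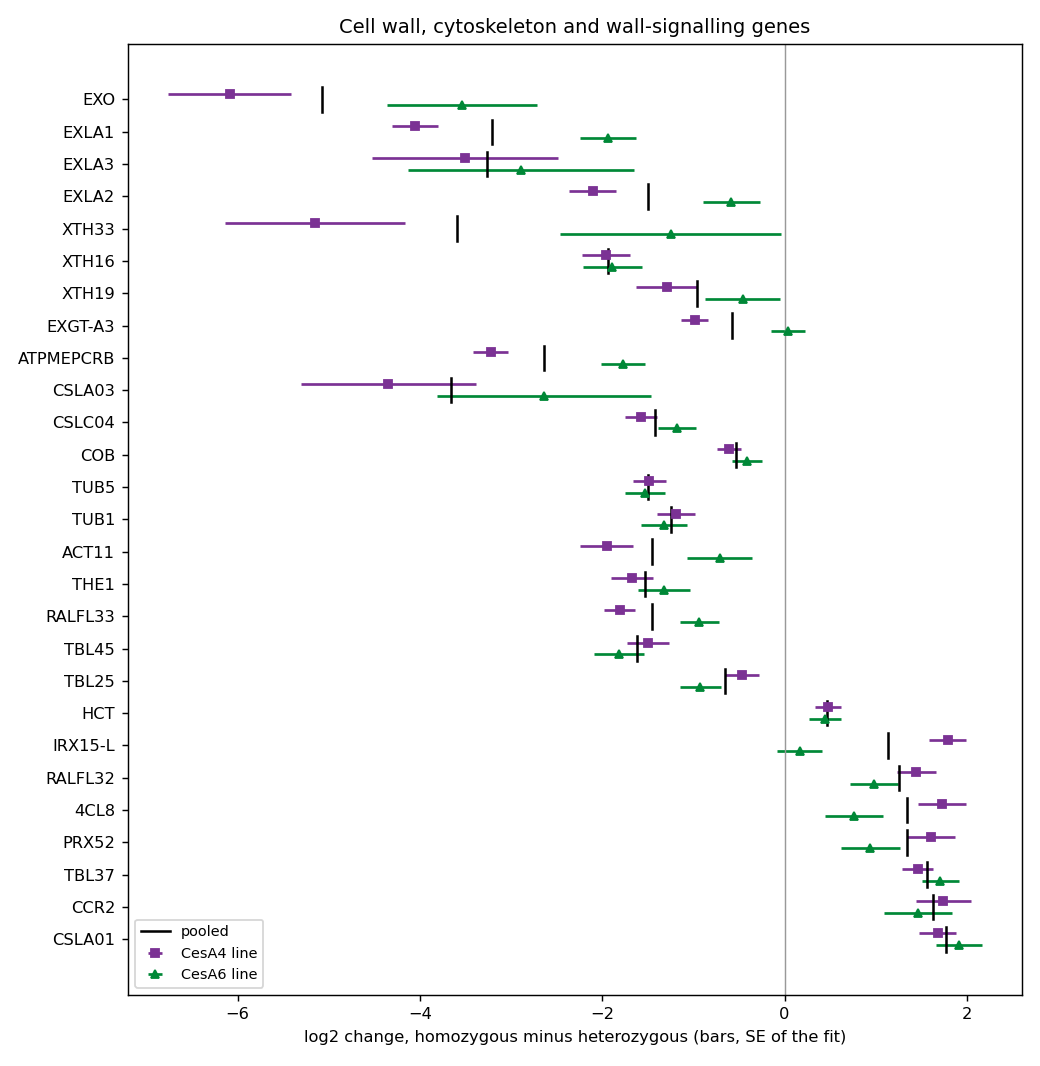
Log2 change, homozygous minus heterozygous, of 27 cell wall, cytoskeleton and wall-signalling genes. Squares give the CesA4 line, triangles the CesA6 line (bars, SE of the fit) and black ticks the pooled change. Pooled changes run from -5.07 for EXO to 1.77 for CSLA01, and EXLA1, ATPMEPCRB and IRX15-L are genes whose change was called different between lines.

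Cytoskeleton and wall-signalling genes were also among the falls. TUB5 (AT1G20010), a beta-tubulin of the microtubules that guide cellulose synthase, had signals of 105, 91.2 and 113 in homozygous CesA4 plants and 62.7 and 60.3 in homozygous CesA6 plants, against 283, 324 and 256 in heterozygous CesA4 plants and 164 and 192 in heterozygous CesA6 plants. TUB1 (AT1G75780) had 80.5, 93.8 and 60.2 in homozygous CesA4 plants and 48.5 and 46.1 in homozygous CesA6 plants, against 184, 186 and 157 in heterozygous CesA4 plants and 122 and 114 in heterozygous CesA6 plants. For both tubulins the arrays separated by genotype, with log2 changes of -1.50 ± 0.14 and -1.24 ± 0.16. The actin gene ACT11 fell by 1.45 ± 0.26. These were the 3 called of 9 tubulin and actin genes (33.3%, against 8.95% of all genes, median -0.34). TRM26 fell by 2.06 ± 0.49, IQD24 fell by 0.96 ± 0.24, and iqd32 rose by 0.64 ± 0.18, out of 30 genes of these microtubule-associated families (10%, near the 8.95% of all genes). THE1 (AT5G54380), the receptor kinase that senses damage to cellulose, had 65.4, 37.3 and 53.1 in homozygous CesA4 plants and 30.8 and 39.0 in homozygous CesA6 plants, against 155, 152 and 180.0 in heterozygous CesA4 plants and 85.1 and 88.1 in heterozygous CesA6 plants. It fell by 1.53 ± 0.19 (adjusted p = 5.54e-07), whereas the related kinase FER had an estimate of -0.27 and was not called. RALFL33 (AT4G15800), 1 of the small secreted peptides that can bind such kinases, had 251, 301 and 257 in homozygous CesA4 plants and 291 and 299.6 in homozygous CesA6 plants, against 789.7, 1303 and 807 in heterozygous CesA4 plants and 587 and 542 in heterozygous CesA6 plants. RALFL33 fell by 1.46 ± 0.16 and RALFL32 rose by 1.26 ± 0.17, the 2 called of 10 RALF-like genes (20%, against 8.95% of all genes). TET8 (AT2G23810), a membrane-organising tetraspanin, had 272, 252 and 331 in homozygous CesA4 plants and 329 and 275 in homozygous CesA6 plants, against 626, 909.6 and 955 in heterozygous CesA4 plants and 798 and 1028 in heterozygous CesA6 plants. It fell by 1.55 ± 0.14 and, with TET10 (-1.01 ± 0.28), made 2 falls among 15 tetraspanins (13.3%, against 4.34% of all genes), while 10 of the 15 had estimates above 0. TRM26, IQD24, iqd32 and TET10 lost their calls when eBayes was run without trend and robust (adjusted p 0.0555 to 0.13). The call of iqd32 also depended on homozygous CesA4 array 2 and heterozygous CesA4 array 1, each left out alone (adjusted p 0.0616 to 0.0715). The call of TET10 also depended on heterozygous CesA4 array 2 and heterozygous CesA6 array 2, each left out alone (adjusted p 0.0596 to 0.0861).

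Genes of lignin, xylan and wall acetylation changed both ways. Of 32 such genes, 6 rose (18.8%) and 4 fell (12.5%), against 4.61% and 4.34% of all genes. The CesA4 arrays alone called 5 higher and 1 lower, and the CesA6 arrays alone 2 higher and 4 lower. CCR2 (AT1G80820), a cinnamoyl-CoA reductase at the entry to lignin synthesis, had signals of 74.1, 75.0 and 51.1 in homozygous CesA4 plants and 84.8 and 81.4 in homozygous CesA6 plants, against 17.4, 22.1 and 19.9 in heterozygous CesA4 plants and 25.3 and 35.7 in heterozygous CesA6 plants. Every homozygous array was above every heterozygous one (log2 change 1.63 ± 0.24, adjusted p = 9.13e-06). 4CL8 rose by 1.34 ± 0.22, the peroxidase PRX52 by 1.34 ± 0.22 and HCT, an enzyme of the lignin precursor pathway, by 0.46 ± 0.12. TBL37 (AT2G34070), from a family of wall polysaccharide acetyltransferases, had 226, 229 and 219.7 in homozygous CesA4 plants and 339 and 369.9 in homozygous CesA6 plants, against 80.5, 83 and 81.7 in heterozygous CesA4 plants and 113 and 104 in heterozygous CesA6 plants. It rose by 1.56 ± 0.14, whereas its relative TBL45 (AT2G30010) fell by 1.62 ± 0.18 without overlap. TBL25 fell by 0.65 ± 0.15, TBL40 (AT2G31110) fell by 1.29 ± 0.29 and AT5G06700 fell by 0.43 ± 0.13. IRX15-L (AT5G67210), needed for xylan of secondary walls, was called higher (1.14 ± 0.24), but its change was 1.79 ± 0.20 in the CesA4 line and 0.17 ± 0.24 in the CesA6 line. HCT, TBL25, AT5G06700 and IRX15-L lost their calls when eBayes was run without trend and robust (adjusted p 0.0512 to 0.0881). AT5G06700 lost its call without the line term (adjusted p = 0.05). The call of AT5G06700 also depended on homozygous CesA4 array 1, heterozygous CesA4 array 1, homozygous CesA6 array 1 and heterozygous CesA6 arrays 1 and 2, each left out alone (adjusted p 0.0542 to 0.117).

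**Figure D4:**
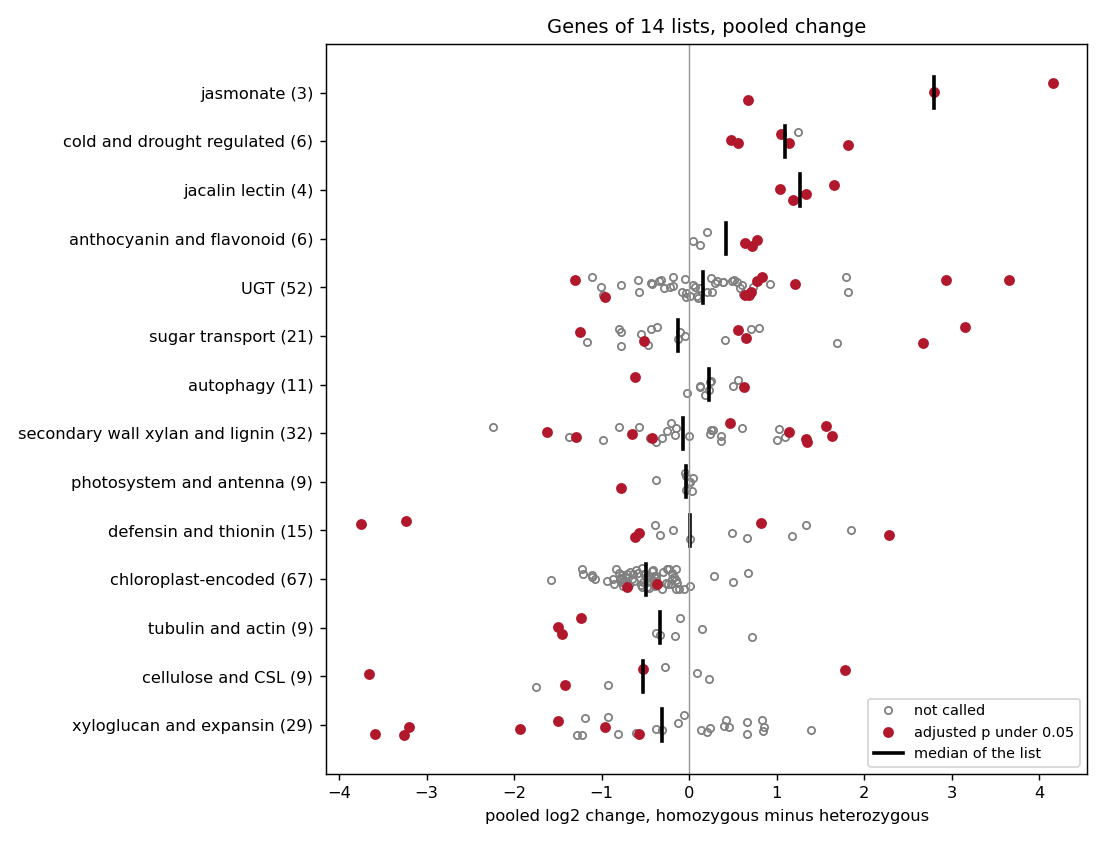
Pooled log2 change, homozygous minus heterozygous, of every gene in 14 gene lists (number of genes in brackets). Filled points passed an adjusted p of 0.05, open points did not, and the black line is the list's median. All 4 jacalin lectins and 5 of 6 cold and drought genes were called higher, and the 7 called genes of the xyloglucan and expansin list were all lower.

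Regulators and calcium sensors followed no single direction. WRKY53 (AT4G23810), a transcription factor that promotes leaf senescence, had signals of 25.0, 14.1 and 15.7 in homozygous CesA4 plants and 48.9 and 35.7 in homozygous CesA6 plants, against 93.5, 116 and 148 in heterozygous CesA4 plants and 190.2 and 150.4 in heterozygous CesA6 plants. Without overlap, it fell by 2.44 ± 0.22 (adjusted p = 2.83e-09). WRKY6, also linked to senescence, rose by 1.71 ± 0.39 with overlapping groups. Thus 1 of 7 WRKY genes rose and 1 fell (28.6% called, against 8.95% of all genes). CML42 (AT4G20780), a calmodulin-like calcium sensor, fell by 2.03 ± 0.36, while CML39 (AT1G76640) rose by 4.51 ± 0.52, with heterozygous signals of 1.27 to 10.9. They were the 2 called of 8 calcium sensors (25%, against 8.95% of all genes). Of 22 bZIP factors, 2 were called (9.09%, near the 8.95% of all genes). BZIP53 fell by 0.75 ± 0.16, with -1.16 ± 0.15 in the CesA4 line and -0.14 ± 0.19 in the CesA6 line, and the dim BZIP61 fell by 4.05 ± 0.77. The change of BZIP61 was -4.69 without homozygous CesA4 array 1 and -4.68 without homozygous CesA6 array 1. The AP2/ERF factor TINY2 rose by 1.02 ± 0.25, with 0.51 ± 0.29 in the CesA4 line and 1.80 ± 0.35 in the CesA6 line. The bHLH factor bHLH94 (AT1G22490) rose by 1.16 ± 0.27, 1 of 10 in its list (10%, near the 8.95% of all genes). The gibberellin receptor GID1B rose by 1.35 ± 0.30, with 1.96 ± 0.35 in the CesA4 line and 0.43 ± 0.43 in the CesA6 line. STZ (AT1G27730), a zinc-finger repressor of stress responses, fell by 0.91 ± 0.22, with -0.39 ± 0.18 in the CesA4 line and -1.67 ± 0.22 in the CesA6 line. ARL (AT2G44080), ARGOS-LIKE, which promotes cell expansion, averaged 49.9 ± 14.4 in homozygous plants and 117 ± 28.8 in heterozygous ones (SD, n = 5 each) and fell by 1.25 ± 0.22. None of 15 auxin, 3 MYB, 1 NAC and 7 glutamate receptor-like genes was called. Of 40 AGAMOUS-like genes 1 was called (2.5%, against 8.95% of all genes), AGL19 (0.65 ± 0.19). A mean signal of at least 50 was reached by 1 auxin, 2 MYB, 1 NAC, 2 glutamate receptor-like and 5 AGAMOUS-like genes. For the auxin, glutamate receptor-like and AGAMOUS-like lists the lack of calls thus covers mostly dim probe sets. Genes without a named probe set, or without a matching symbol or synonym, were in no list. The counts in this paragraph thus need not describe whole families. Of 5 senescence genes, SAG29 and WRKY6 rose and WRKY53 fell (60% called, against 8.95% of all genes), and SAG101 and YLS5 were not called. Of 8 histone genes, 2 were called (25%, against 8.95% of all genes), of which HIS1-3 rose and HTB4 was called higher by 0.37 ± 0.12. None of the heat shock, salicylate, ethylene, aquaporin, cell cycle and circadian clock genes, 1 or 2 per list, was called. No heat shock, salicylate or cell cycle gene here reached a mean signal of 50. BZIP53, TINY2, AT1G22490, GID1B, STZ, AGL19 and HTB4 lost their calls when eBayes was run without trend and robust (adjusted p 0.0541 to 0.116). HTB4 lost its call without the line term (adjusted p = 0.106). Leaving out homozygous CesA4 array 2 ended the call of STZ (adjusted p = 0.0529). The call of AGL19 also depended on homozygous CesA4 array 3, heterozygous CesA4 array 3, homozygous CesA6 array 1 and heterozygous CesA6 array 1, each left out alone (adjusted p 0.0594 to 0.0966). The call of HTB4 also depended on homozygous CesA4 arrays 1 and 2, heterozygous CesA4 arrays 1 and 3, homozygous CesA6 arrays 1 and 2 and heterozygous CesA6 arrays 1 and 2, each left out alone (adjusted p 0.0615 to 0.114).

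Calls in protein turnover families went both ways. SKP2A (AT1G21410), an F-box protein of a ubiquitin ligase, had 374, 332 and 344 in homozygous CesA4 plants and 399 and 412 in homozygous CesA6 plants, against 114, 106 and 106 in heterozygous CesA4 plants and 112 and 124 in heterozygous CesA6 plants. Both groups were tight and apart (log2 change 1.73 ± 0.13). Among 9 U-box ligases, 4 were called (44.4%, against 8.95% of all genes). PUB19 and PUB43 (0.92 ± 0.16) rose and PUB23 (-0.90 ± 0.24) and PUB26 (-0.81 ± 0.23) fell. Of 12 ubiquitin-conjugating enzymes, UBC32 rose by 0.90 ± 0.15 and UBC30 by 0.50 ± 0.12 (16.7% called, against 8.95% of all genes). Of 29 serine carboxypeptidase-like genes, SCPL49 rose (0.56 ± 0.14) and scpl25 (-0.70 ± 0.16), scpl35 (-0.77 ± 0.16) and scpl46 (-0.56 ± 0.15) fell. These were 13.8% of the list, against 8.95% of all genes. The subtilase ATSBT5.2 (AT1G20160) rose by 1.74 ± 0.17, the only call among 9 (11.1%, near the 8.95% of all genes). Of 11 autophagy genes, ATG8F rose by 0.62 ± 0.13 and ATG8E fell by 0.62 ± 0.21 (18.2% called, against 8.95% of all genes). A mean signal of at least 50 was reached by 10 of the 12 ubiquitin-conjugating and 9 of the 11 autophagy genes. The share over all genes, mostly dimmer, is thus a low comparison for these 2 lists. PUB26, SCPL49, scpl35, scpl46 and ATG8E lost their calls when eBayes was run without trend and robust (adjusted p 0.0579 to 0.141). PUB26 and ATG8E lost their calls without the line term (adjusted p = 0.0673 for both). Leaving out heterozygous CesA4 array 1 ended the call of PUB23 (adjusted p = 0.0633). The call of PUB26 also depended on homozygous CesA4 arrays 2 and 3 and heterozygous CesA4 array 3, each left out alone (adjusted p 0.0501 to 0.0906). Leaving out heterozygous CesA6 array 1 ended the call of scpl46 (adjusted p = 0.0652). The call of ATG8E also depended on homozygous CesA4 arrays 1 and 2, heterozygous CesA4 arrays 2 and 3, homozygous CesA6 arrays 1 and 2 and heterozygous CesA6 arrays 1 and 2, each left out alone (adjusted p 0.0513 to 0.177).

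Of 52 UDP-glycosyltransferases, which attach sugars to small molecules, 8 rose (15.4%, against 4.61% of all genes) and 2 fell (3.85%, against 4.34%). The median change was 0.16 for both lines, 0.31 for the CesA4 arrays alone and 0.07 for the CesA6 arrays alone. UGT76E12 (AT3G46660) had signals of 104, 59.4 and 104 in homozygous CesA4 plants and 182 and 98.4 in homozygous CesA6 plants, against 1.58, 8.73 and 10.2 in heterozygous CesA4 plants and 13.7 and 18.6 in heterozygous CesA6 plants. Its heterozygous signals were all low and the log2 change was 3.66 ± 0.43 (adjusted p = 1.68e-06). The neighbouring family member UGT76E11 rose by 1.21 ± 0.17, UGT84A3 by 0.83 ± 0.13, GT72B1 by 0.71 ± 0.12, UGT87A2 by 0.68 ± 0.16 and the dim UGT73C1 by 2.94 ± 0.88. UGT85A4 fell by 1.31 ± 0.30 and UGT72E1, which glucosylates lignin precursors, fell by 0.96 ± 0.22. The other UGT calls were the flavonoid enzymes UF3GT and UGT78D2. Of 24 cytochromes P450, 3 rose (12.5%, against 4.61% of all genes), CYP71B37 (3.11 ± 0.59), CYP84A4 (1.15 ± 0.33) and CYP71B26 (1.08 ± 0.13). Of 14 glutathione transferases, GSTU16 (0.70 ± 0.15) and GSTU18 (0.50 ± 0.15) rose and GSTU27 (-1.28 ± 0.16) fell. These were 21.4% of the list, against 8.95% of all genes. CCS (AT1G12520), the copper chaperone of superoxide dismutase, averaged 555 ± 49.1 in homozygous plants and 221 ± 46.9 in heterozygous ones (SD, n = 5 each) and rose by 1.36 ± 0.14. UGT87A2, UGT73C1, UGT72E1 and GSTU18 lost their calls when eBayes was run without trend and robust (adjusted p 0.051 to 0.171). UGT87A2 and GSTU18 lost their calls without the line term (adjusted p 0.0673 to 0.336). UGT73C1 lost its call after dropping the 30% of probe sets with the lowest signals (adjusted p = 0.0787). The call of UGT73C1 also depended on homozygous CesA4 arrays 1 and 3, heterozygous CesA4 array 2, homozygous CesA6 array 1 and heterozygous CesA6 array 2, each left out alone (adjusted p 0.051 to 0.0936). The call of CYP84A4 also depended on homozygous CesA4 array 1, homozygous CesA6 arrays 1 and 2 and heterozygous CesA6 array 2, each left out alone (adjusted p 0.0509 to 0.0935). The call of GSTU18 also depended on homozygous CesA4 arrays 1 and 3, heterozygous CesA4 array 1, homozygous CesA6 array 2 and heterozygous CesA6 array 1, each left out alone (adjusted p 0.0532 to 0.134).

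Of 6 anthocyanin and flavonoid genes, 3 rose (50%, against 4.61% of all genes) and none fell (median 0.42). DFR (AT5G42800), the reductase that commits flavonoids to anthocyanin, had signals of 1076, 687 and 749 in homozygous CesA4 plants and 976 and 893 in homozygous CesA6 plants, against 425, 394 and 404 in heterozygous CesA4 plants and 695 and 865 in heterozygous CesA6 plants. Heterozygous CesA6 arrays reached the level of homozygous arrays, and the change was 1.01 ± 0.16 in the CesA4 line and 0.27 ± 0.20 in the CesA6 line. UF3GT, which adds xylose to anthocyanins, rose by 0.78 ± 0.15 and UGT78D2, which glucosylates flavonoids, by 0.63 ± 0.13. DFR and UF3GT lost their calls when eBayes was run without trend and robust (adjusted p 0.055 to 0.08). Of 7 glucosinolate genes, GTR1 (AT3G47960), a transporter of these defence compounds, was the 1 called (14.3%, against 8.95% of all genes). It averaged 539 ± 70.4 in homozygous plants and 317 ± 18.9 in heterozygous ones (SD, n = 5 each), with a log2 change of 0.76 ± 0.12.

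Few photosynthesis genes were called. Of 9 nuclear photosystem and antenna genes, 1 was called (11.1%, near the 8.95% of all genes), the antenna gene LHCB4.3 (-0.78 ± 0.16). All 9 had a mean signal of at least 50, unlike most of all genes, and the list's median change was -0.037. None of 4 Calvin cycle genes was called. Chloroplast-encoded transcripts had estimates below 0 for 63 of 67 genes (49.6% of all genes were below 0), with a median of -0.49, and 2 of the 67 were called (2.99%, against 8.95% of all genes), psbA (-0.71 ± 0.15), the D1 protein of photosystem II, and atpE (-0.36 ± 0.10), a subunit of ATP synthase. This count depended on single arrays, with 12 called lower without homozygous CesA4 array 3, 8 without heterozygous CesA6 array 1, 5 without homozygous CesA6 array 1 and 1 without either heterozygous CesA4 array 2 or heterozygous CesA6 array 2. The CesA6 arrays alone called 9 and the CesA4 arrays alone 5, all lower. The summed signal of the 67 genes was 48500, 51624 and 69437 in homozygous CesA4 plants and 68743 and 51230 in homozygous CesA6 plants, against 79530, 75004 and 65100 in heterozygous CesA4 plants and 71066 and 106420 in heterozygous CesA6 plants. The genotypes overlapped, and the 2 heterozygous CesA6 arrays stood at -0.51 and 0.51 around their own mean, as the median log2 difference over the 67 genes. The median over the 67 genes stayed below 0 with quantile normalization (-0.51) and with a pseudocount of 3.2 (-0.48), and lay between -0.66 and -0.34 with single arrays left out. These transcripts mostly lack the poly(A) tails from which one-cycle labelling starts, and the part of labelling in this difference was not tested. LHCB4.3, psbA and atpE lost their calls when eBayes was run without trend and robust (adjusted p 0.0745 to 0.176). The call of atpE also depended on heterozygous CesA4 array 2, homozygous CesA6 array 2 and heterozygous CesA6 array 2, each left out alone (adjusted p 0.0523 to 0.0683).

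**Figure D5:**
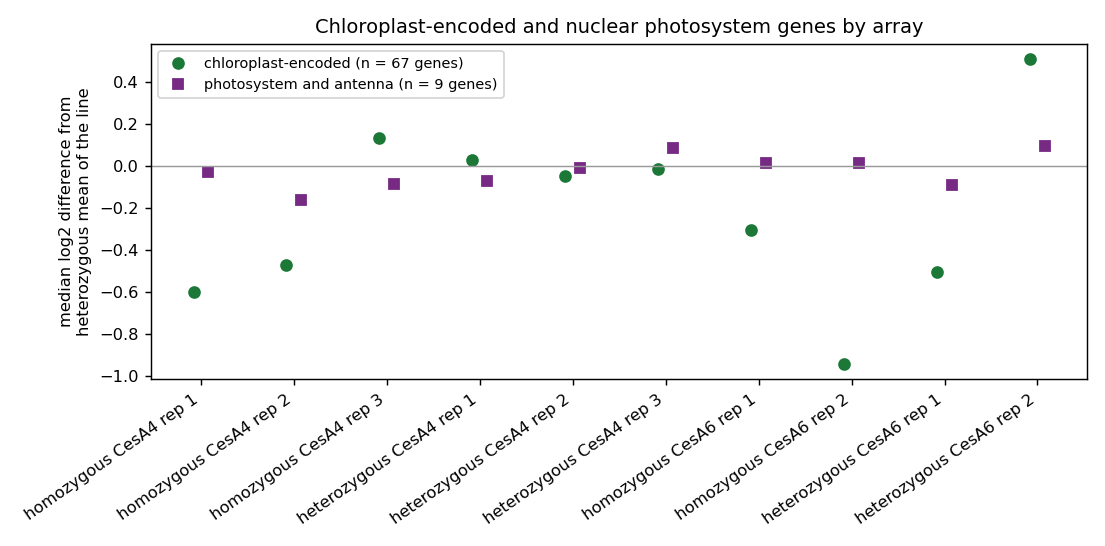
Median log2 difference of each array from the heterozygous mean of its line, over 67 chloroplast-encoded genes (circles) and 9 nuclear photosystem and antenna genes (squares). The circles spread from -0.94 to 0.51 with overlap between genotypes, and the squares stay within -0.16 and 0.09.

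The 484 probe sets that passed only with the lines pooled comprised 238 higher and 246 lower ones, and the arrays of 231 of them did not overlap. Their median absolute log2 change was 0.62, against 1.35 for the 844 that passed in each line alone. CKS (AT1G53000), which activates the sugar KDO found in pectin, had 212, 171 and 156 in homozygous CesA4 plants and 166 and 183 in homozygous CesA6 plants, against 130.2, 125 and 113 in heterozygous CesA4 plants and 113 and 110.1 in heterozygous CesA6 plants. It rose by 0.58 ± 0.14 (adjusted p = 0.00578), with 0.54 ± 0.18 in the CesA4 line and 0.64 ± 0.22 in the CesA6 line. SETH3 (AT3G54690), a sugar isomerase, had 132, 128 and 122 in homozygous CesA4 plants and 100.3 and 93.4 in homozygous CesA6 plants, against 159, 184 and 179 in heterozygous CesA4 plants and 146 and 146 in heterozygous CesA6 plants. It fell by 0.51 ± 0.14 (adjusted p = 0.0146). DJ1D (AT3G02720), of the DJ-1 family, had 441, 379 and 404 in homozygous CesA4 plants and 407 and 448 in homozygous CesA6 plants, against 323, 272 and 293 in heterozygous CesA4 plants and 281 and 319 in heterozygous CesA6 plants. DJ1D rose by 0.48 ± 0.12 (adjusted p = 0.00829), and none of these 3 genes overlapped between genotypes. HCT, BGLU40 and IQD24, given with their families, and ARLA1D (-0.63 ± 0.16) belong here too. ARLA1D lost its call when eBayes was run without trend and robust (adjusted p = 0.0963).

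A few genes entered the shared response with changes of unequal size. DEWAX (AT5G61590), a repressor of wax genes, had signals of 267, 268 and 407 in homozygous CesA4 plants and 52.3 and 34.2 in homozygous CesA6 plants, against 893, 1038 and 1041 in heterozygous CesA4 plants and 715 and 788 in heterozygous CesA6 plants. Both lines fell, and the CesA6 line fell further (-1.68 ± 0.18 in the CesA4 line and -4.15 ± 0.22 in the CesA6 line, adjusted p of the difference = 3.99e-05). The pooled call of this gene, at -2.67 ± 0.47 (adjusted p = 0.0087), was lost without the line term (adjusted p = 0.0596). AT2G47440 had 107, 99.6 and 90.1 in homozygous CesA4 plants and 103 and 132 in homozygous CesA6 plants, against 873, 804 and 891 in heterozygous CesA4 plants and 273 and 437 in heterozygous CesA6 plants. It fell further in the CesA4 line, where heterozygous signals were higher (-3.12 ± 0.18 in the CesA4 line and -1.57 ± 0.22 in the CesA6 line). ORA47 (AT1G74930), an AP2/ERF factor of jasmonate synthesis, had 94.8, 96.1 and 140.2 in homozygous CesA4 plants and 48.5 and 31.4 in homozygous CesA6 plants, against 48.0, 34.2 and 45.1 in heterozygous CesA4 plants and 77.4 and 69.8 in heterozygous CesA6 plants. Its homozygous arrays were above the heterozygous ones in the CesA4 line and below them in the CesA6 line, so the pooled estimate of 0.46 ± 0.37 was not called (adjusted p = 0.58), while the difference between lines was (adjusted p = 0.00783). Among the 17 genes with a mean signal of at least 50 that passed both the pooled test and the test of the difference, 16 changed in the same direction in both lines. The pooled test itself favours this share, since opposite changes cancel in it. The CesA4 line had the more positive change for 7 of them and the more negative change for 10.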

How the data were processed

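The authors deposited linear-scale intensities, namely MAS5 signals from GCOS, per the submitters' processing notes. Per the labels' protocols, a Qiagen kit served for total RNA extraction and the one-cycle protocol for biotin labelling. Of 22810 deposited probe sets, 64 array controls were left out. No value was at or below 0, no detection calls were used, and the number of arrays limits the precision.

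Signals were taken to log2 without a pseudocount and fitted with limma 3.58.1 in R 4.3.3, with genotype and line as terms (7 residual degrees of freedom, a median of 20 prior ones) and eBayes with trend and robust. A second model with a mean for each group (6 residual degrees of freedom) gave the change in each line and the difference between lines. Tests were two-sided, and p-values were adjusted by Benjamini-Hochberg over all 22746 probe sets, with a call at 0.05. Log2 changes carry the fit's standard error, and mean signals carry the SD over 5 arrays, which includes the difference between lines.

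GEO's platform annotation supplied gene names, with 1 gene for 13513 probe sets, several for 503 and none for 8730. Of the first, 13436 were matched to the reference TAIR10.1 for current names. The brightest probe set stood for a gene.

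The comparison, the gene lists and the rule for naming genes were chosen with earlier results of these data known. The rule took, per direction, the 12 largest changes among genes without overlap overall and in each line and a mean signal of at least 50. It also took the called list members with the smallest p, the brightest uncalled ones, and genes whose change differed between lines. Further called list members, the largest changes among genes with a name of their own and genes called only with the lines pooled were added after their values were seen. Of 59 lists built from gene symbols and synonyms, 52 had members and 7 had none. The fit was tested on simulated data for 22746 probe sets of the pooled comparison. It recovered 0% of 67 log2 changes of 0.5, 25.4% of 67 changes of 1 and 48.5% of 66 changes of 2, and called 5 unchanged probe sets. Far fewer probe sets were changed there than the 2470 called in the data, which makes the adjusted threshold stricter. These rates therefore do not give the recovery in the data. Alternatives covered a pseudocount of 3.2, filters on low signals, quantile normalization, eBayes options, a replicate block, the line term, line weights, each line alone and leaving out each array.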

Additional observations from a re-analysis of the deposited data

Results flagged for a closer look

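For 14 named genes the change between homozygous and heterozygous plants differed between the lines by limma's test of the difference (adjusted p under 0.05), so the pooled value averages unequal changes. The difference, as the log2 change of the CesA4 line minus that of the CesA6 line, was positive for AR781 (1.82), STZ (1.28), ORA47 (2.28), AT5G61590 (2.47), JAL23 (1.58), IRX15-L (1.62) and AT5G25280 (1.31). It was negative for EXLA1 (-2.12), AT5G44020 (-1.66), ATPMEPCRB (-1.46), AT2G47440 (-1.55), AT3G57450 (-1.41), AT4G19530 (-1.65) and LCR69 (-1.10).

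ORA47 changed in opposite directions, with 1.37 ± 0.26 in the CesA4 line and -0.91 ± 0.31 in the CesA6 line, and LCR69 had -1.02 ± 0.15 in the CesA4 line and 0.08 ± 0.18 in the CesA6 line. For the others both lines had the same sign. All 14 differences lost their call with eBayes run without trend and robust, and AT5G61590 (DEWAX) lost it under no other alternative. Of the 14, leaving out 1 array ended the calls of 13 without heterozygous CesA6 array 1, 12 without heterozygous CesA6 array 2, 11 without homozygous CesA6 array 2, 8 without homozygous CesA4 array 1, 7 without heterozygous CesA4 array 1, 7 without heterozygous CesA4 array 3, 4 without homozygous CesA6 array 1, 3 without homozygous CesA4 array 3, 2 without homozygous CesA4 array 2 and 1 without heterozygous CesA4 array 2 (adjusted p 0.0504 to 0.341). LCR69 was also lost with quantile normalization (adjusted p = 0.0564) and JAL23 after dropping the 30% of probe sets with the lowest signals (adjusted p = 0.061). The self-test was made for the pooled comparison and not for this difference, and with 2 arrays per group in the CesA6 line the precision of these values is limited.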

How the results depend on the processing

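The count of 2470 pooled calls stayed within 1.5 times under most alternatives. The exceptions were eBayes without trend and robust, with 1433 calls, and the CesA6 arrays alone, with 1372. The CesA4 arrays alone gave 2041, the fit without a line term 1912, and leaving out single arrays 2129 to 2323. Calls without overlap between genotypes, 1507 in all, numbered 1183 without trend and robust, 2007 for the CesA4 arrays alone, 1372 for the CesA6 arrays alone and 1504 to 1697 with single arrays left out. Overlap was judged only on the arrays of each fit, 3 against 3 for the CesA4 line and 2 against 2 for the CesA6 line. These counts are thus not like the 1507. All 1372 CesA6 calls were without overlap, so the criterion removed none there. The 82 calls of a difference between lines were less stable. They numbered 0 in limma without trend and robust (1731 at an unadjusted p under 0.05), 151 with the replicate block and 14 to 123 with single arrays left out. Over the named genes called in the pooled comparison, the sign was reversed for LCR69 (log2 change 0.0817) and EXGT-A3 (0.0410) with the CesA6 arrays alone and for no other gene or alternative run. The cause of these shifts was not tested, beyond the fewer arrays used.

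Same-numbered arrays correlated, in their deviations from group means, at 0.102, 0.163 and 0.162 in the CesA4 line and at 0.0156 for both CesA6 pairs. With 2 arrays per group, the 2 CesA6 values are equal by construction and count as 1 value. All 3 CesA4 pairs were over 0.1, and every CesA4 array correlated best with its own number. The CesA6 value was under 0.1, and the numbers were not taken as pairing over the whole comparison. That 1 value cannot decide whether the arrays were paired. A block for replicate number gave 2364 pooled calls, 2297 of them shared. With it DEWAX (adjusted p = 0.0668), JAL23 (0.0647), LCR69 (0.105), ATG8E (0.0673), HTB4 (0.067) and AR781 (0.0796) were not called, and the xyloglucan and expansin list had 1 member called higher.

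With 2 or 3 arrays per group, low signals and no detection calls, the size of changes near the bottom of the scale is uncertain. The labels give no growth, extraction or scan batches, and batches were not tested.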
